A study of Homo sapiens with 6 samples.

Results

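The nuclear genes of the mitochondrial respiratory chain were examined for open chromatin in 6 libraries of GM12878, a line of human B lymphoblastoid cells that carries Epstein-Barr virus. The members were the protein-coding genes on chromosomes 1 to 22 in the RefSeq table for GRCh38.p14 whose symbols start with NDUFA, NDUFB, NDUFC, NDUFS, NDUFV, UQCR, ATP5 or COX with a digit, together with SDHA, SDHB, SDHC and SDHD. This rule took 102 of 19122 genes, spread over 21 chromosomes, and used no measured value. Of genes whose symbols match, it left out 3 that are X-linked and 3 of the mitochondrial genome. It also left out genes of the chain under other symbols, such as CYC1 of complex III. The genes formerly called NDUFA4 and NDUFA4L2, which the table lists under other symbols, are no members either. NDUFC2-KCTD14 and ATP5MF-PTCD1 are readthrough genes that share their start with NDUFC2 and ATP5MF, so each such pair has the same region and ranks at that start.

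The 3 groups of 2 libraries were compared: H3K27ac high, H3K27ac low and live control. Cells of the high and low groups received a viability stain, paraformaldehyde fixation and an antibody stain for H3K27ac, an acetylation of histone H3 found at active promoters and enhancers, and were sorted for a strong or a weak signal of that stain. They were profiled with InTAC-seq, an ATAC-seq protocol for fixed cells in which the transposase Tn5 cuts and tags open DNA, and their crosslinks were then reversed. The live control cells were neither sorted nor carried through crosslink reversal, so fixation, staining, sorting and reversal cannot be told apart in any comparison with them. All cells came from 1 cell line with no genetic change named. The labels describe replicates as equal portions of the counted cells, so replicate spread may be technical, and it is the only spread that the p-values measure.

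Each deposited list holds peak summits with a score from the authors' peak caller. Summits closer than 250 bp were joined into regions, the regions of a library were ordered by best score with rank 1 at the top, and the best 25627 were kept in every library, the length of the shortest list (H3K27ac high replicate 1). The lists held 25754 and 46708 summits in high libraries, 41980 and 51944 in low libraries and 70100 and 72476 in live libraries, and their read depth is unknown. Open, of a gene in a library, means here that a kept region had its best summit no more than 1 kb from either annotated end of the gene. Of 12 B lymphoblastoid markers, 6 were open in all 6 libraries, while CR2 and BLK were among those open in none. None of 6 myeloid and none of 2 erythroid markers was open in any library. Of 8 T and NK cell markers, CD3E was open in all 6 libraries and 4 were open in none. CD2 and CD3D were open in high replicate 1 alone and NKG7 in high replicate 2 alone.

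The respiratory chain moves electrons from NADH through complex I, or from succinate through complex II, to complex III, cytochrome c and complex IV, which hands them to oxygen. The protons pumped on the way drive complex V, the ATP synthase. Apart from a few subunits made inside the mitochondrion, the subunits and assembly factors are encoded in the nucleus, and the transcription factors NRF1, GABPA (also called NRF2), YY1 and SP1 are textbook regulators of many of their promoters.

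The promoters of 7 members are printed because the results turn on them. SDHA and ATP5ME ranked better in the sorted than in live libraries, COX10, ATP5IF1 and NDUFS4 ranked worse in the sorted than in the live libraries, and COX6A1 and COX6A2 are the widely expressed and the muscle form of 1 subunit, the first open and the second not. Each sequence runs 5′ to 3′ from 250 bases before to 50 bases after the annotated gene start and comes from RefSeq, build GRCh38.p14. Capitals mark matches, on either strand, to the motifs searched, which were GCGCA and GCGC with any 1 base between them for NRF1, CCGGAAG for GABPA, AAGATGGCG for YY1, GGGCGG for SP1, CCAAT for NFY, TATAAA for the TATA box, TGACGTCA for CREB, CACGTG for the E-box and ACTACAA and TCC with any 1 base between them for ZNF143. SDHA lies at chr5:218070-218369 (plus strand), ATP5ME at chr4:674227-674526 (minus), COX10 at chr17:14069254-14069553 (plus), ATP5IF1 at chr1:28235874-28236173 (plus), NDUFS4 at chr5:53560389-53560688 (plus), COX6A1 at chr12:120437863-120438162 (plus) and COX6A2 at chr16:31428311-31428610 (minus).
SDHA: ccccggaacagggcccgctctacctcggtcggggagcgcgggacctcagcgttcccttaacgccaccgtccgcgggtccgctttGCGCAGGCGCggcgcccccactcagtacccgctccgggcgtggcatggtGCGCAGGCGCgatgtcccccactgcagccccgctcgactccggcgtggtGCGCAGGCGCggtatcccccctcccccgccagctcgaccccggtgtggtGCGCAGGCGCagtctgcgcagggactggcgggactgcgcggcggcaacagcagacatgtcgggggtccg
ATP5ME: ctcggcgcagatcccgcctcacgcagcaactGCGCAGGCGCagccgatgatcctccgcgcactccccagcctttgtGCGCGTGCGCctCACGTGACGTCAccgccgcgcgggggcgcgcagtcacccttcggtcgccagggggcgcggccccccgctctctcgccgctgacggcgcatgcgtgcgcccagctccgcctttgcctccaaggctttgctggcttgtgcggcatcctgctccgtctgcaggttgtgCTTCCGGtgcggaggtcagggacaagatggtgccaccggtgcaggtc
COX10: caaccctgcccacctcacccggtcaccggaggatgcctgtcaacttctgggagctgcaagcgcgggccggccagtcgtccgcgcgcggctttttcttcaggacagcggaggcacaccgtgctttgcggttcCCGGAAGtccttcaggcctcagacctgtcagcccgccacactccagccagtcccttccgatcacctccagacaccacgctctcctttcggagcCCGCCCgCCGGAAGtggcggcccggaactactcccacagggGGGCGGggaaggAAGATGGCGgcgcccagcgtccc
ATP5IF1: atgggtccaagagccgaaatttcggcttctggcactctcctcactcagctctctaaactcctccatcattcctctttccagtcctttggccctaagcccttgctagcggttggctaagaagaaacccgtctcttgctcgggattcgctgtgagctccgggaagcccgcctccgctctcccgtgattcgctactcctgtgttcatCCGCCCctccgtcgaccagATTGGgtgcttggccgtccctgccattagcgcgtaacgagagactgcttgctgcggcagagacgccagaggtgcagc
NDUFS4: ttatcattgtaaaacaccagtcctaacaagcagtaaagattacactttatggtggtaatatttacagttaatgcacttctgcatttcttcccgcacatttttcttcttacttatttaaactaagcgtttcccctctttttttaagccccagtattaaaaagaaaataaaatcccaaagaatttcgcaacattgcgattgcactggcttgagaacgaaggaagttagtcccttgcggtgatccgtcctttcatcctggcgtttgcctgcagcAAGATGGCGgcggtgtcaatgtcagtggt
COX6A1: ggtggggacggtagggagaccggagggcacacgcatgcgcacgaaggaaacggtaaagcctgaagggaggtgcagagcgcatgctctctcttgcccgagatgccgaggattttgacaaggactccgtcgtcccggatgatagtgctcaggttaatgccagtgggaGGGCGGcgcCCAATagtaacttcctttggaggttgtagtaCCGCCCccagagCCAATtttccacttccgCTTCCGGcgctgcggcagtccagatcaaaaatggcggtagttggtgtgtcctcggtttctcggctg
COX6A2: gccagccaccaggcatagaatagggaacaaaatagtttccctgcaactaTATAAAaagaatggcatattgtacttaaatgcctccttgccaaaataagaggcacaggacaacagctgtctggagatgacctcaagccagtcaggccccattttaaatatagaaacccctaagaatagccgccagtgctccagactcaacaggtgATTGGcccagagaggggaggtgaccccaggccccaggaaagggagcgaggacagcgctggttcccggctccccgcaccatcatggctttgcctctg

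The SDHA window holds 4 matches to the NRF1 motif, which start at positions -166, -117, -68 and -19 from the gene start and so lie 49 bases apart. Of the 15100 promoters in the table, 8 have 4 or more NRF1 matches, and SDHA is the 1 member among them. ATP5ME has NRF1 matches at -219 and -174, an E-box at -162 that overlaps a CREB match at -158, and a GABPA match at 3. COX10 has no NRF1 match, but GABPA matches at -119 and -19, SP1 matches at -26 and 15 and a YY1 match at 27. ATP5IF1 has 1 SP1 and 1 NFY match, and NDUFS4 has 1 YY1 match at 21 in a window of 40.3% G and C, against 74.7% at SDHA, 71.0% at ATP5ME and 68.0% at COX10. In every library the NDUFS4 summit lay past the end of its window, so the printed NDUFS4 sequence does not hold the ranked summits. A match is a run of letters and not evidence that the factor binds there.

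Most respiratory chain genes were open in every library. Of the 102 members, 72 (70.6%) were open in all 6 libraries, against 40.6% of all protein-coding genes. Another 16 members (15.7%) were open in none, against 45% of all genes, and 14 (13.7%) were open in 1 to 5 libraries, against 14.4%. By library, 79 members were open in both high libraries, 84 in both low libraries, and 85 and 84 in live libraries. Over all genes, the open share ran from 45.0% to 50.3%. With the full lists, which differ in length, 79 and 88 members had a summit at an end in high libraries, 87 in both low libraries, and 87 and 89 in live libraries. A further count, over all full lists together, found 12 members (11.8%) with no summit at an end in any library, against 35% of all genes. The share of members open was thus above the share of all genes in each of the 6 libraries, with no test of that difference.

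**Figure D1:**
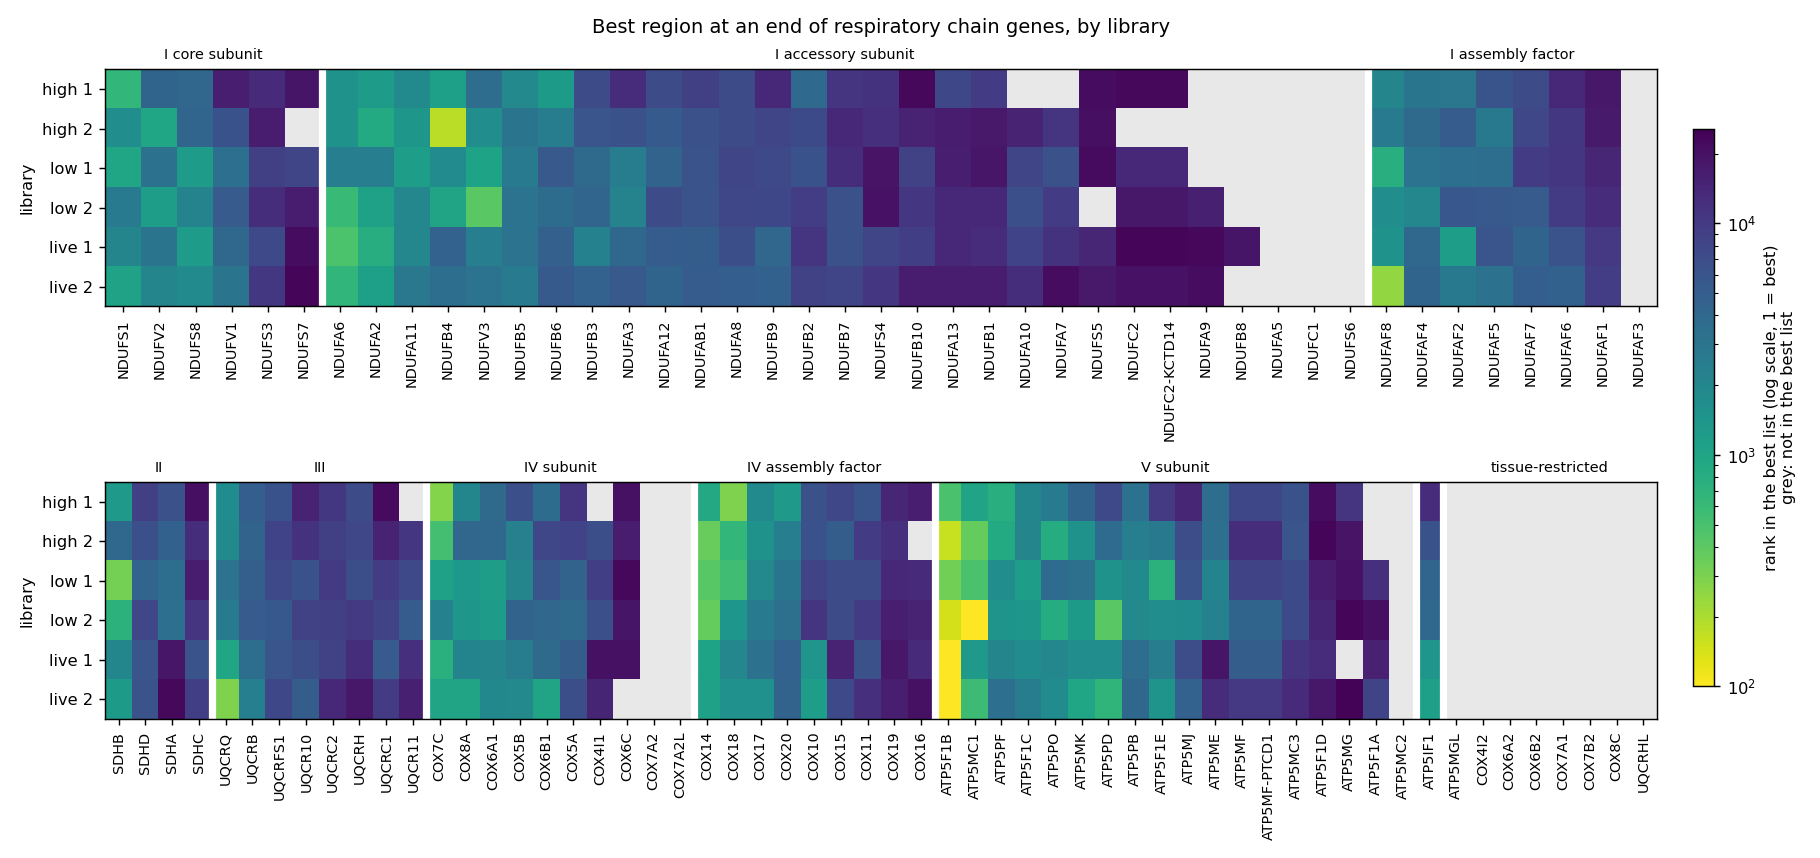
Rank of the best region at an end of 101 of the 102 respiratory chain genes (columns, grouped by complex and role) in each of the 6 libraries (rows: high, low and live). Bright cells are good ranks on a log scale that is capped at rank 100, and grey cells have no region in the library's best list. Grey fills all 48 cells of the 8 tissue-restricted genes, and ATP5F1B is the brightest column.

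Complex V, the ATP synthase, held the 2 members with the best median ranks. ATP5F1B, the catalytic beta subunit of its F1 part, ranked 495 and 161 in high libraries, 327 and 143 in low libraries, and 37 and 14 in live libraries. ATP5MC1, one of the genes for the c subunit of the proton-driven ring, ranked 998 and 367 in high, 495 and 86 in low, and 1294 and 577 in live libraries. ATP5F1C, the gamma subunit of the central stalk, ranked between 1154 and 2466 in all 6. These 3 genes thus ranked at 2466 or better in every library. Of 18 subunit genes of complex V, with ATP5MF and its readthrough counted as separate genes, 15 were open in all 6 libraries. ATP5F1D, the delta subunit of the stalk, was the weakest of these, with ranks of 21250 and 23851 in high, 16806 and 14294 in low, and 12613 and 17846 in live libraries. ATP5MG, a subunit of the membrane part, was missing from the best list of live replicate 1 alone.

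Complex I, the NADH dehydrogenase, had 31 of its 44 members open in all 6 libraries: 5 of 7 core subunits, 19 of 29 accessory subunits and 7 of 8 assembly factors. The accessory subunit NDUFA6 ranked 1478 and 1522 in high, 2376 and 599 in low, and 484 and 672 in live libraries. NDUFA2, another accessory subunit, ranked between 805 and 2390 in all 6, and NDUFS1, the largest core subunit, which carries iron-sulfur clusters, between 655 and 2558. The lower end of the open complex I genes was formed by NDUFB1 and NDUFA13, whose median ranks over the 6 libraries were 15244 and 14962. NDUFB8 was open in live replicate 1 alone, at rank 18873, and NDUFA9 in low replicate 2 and both live libraries at ranks of 15660, 22910 and 21416. In the full lists both genes also had an end summit in high replicate 2 and both low libraries, at ranks from 15660 to 44893, and neither had one in high replicate 1.

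All 4 genes of complex II, the succinate dehydrogenase that also works in the citric acid cycle, were open in all 6 libraries. SDHB, its iron-sulfur subunit, ranked 1300 and 3901 in high, 318 and 727 in low, and 2011 and 1258 in live libraries. The membrane anchor SDHD ranked between 4153 and 8977 in all 6, and the other anchor, SDHC, ranked 20475 and 12338 in high, 16768 and 10895 in low, and 6211 and 9138 in live libraries. For SDHC, then, both live libraries had better ranks than all sorted libraries, while at SDHA, the flavoprotein subunit, the order was the opposite.

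Of the 8 members of complex III, the cytochrome bc1 complex, 7 were open in all 6 libraries. CYC1, a further gene of the complex that the rule does not match, was also open in all 6. UQCRQ, a small subunit, ranked 1730 and 1804 in high, 3090 and 2528 in low, and 954 and 292 in live libraries. UQCRB ranked between 2314 and 5198, and UQCRFS1, the Rieske iron-sulfur protein, between 5598 and 8464. The remaining gene, UQCR11, was missing from high replicate 1 alone.

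Complex IV, cytochrome c oxidase, had 6 of 10 subunit genes and 8 of 9 assembly factors among the members open in all 6 libraries. Its assembly factors under other symbols are no members. Among those, SCO1 was open in all 6 libraries, SURF1 in 4 and SCO2 in 3. COX7C, a small subunit, ranked 282 and 529 in high, 1080 and 2218 in low, and 751 and 1010 in live libraries. COX14, a factor in the assembly of the subunit COX1, ranked 897 and 366 in high, 425 and 371 in low, and 1027 and 1065 in live libraries. COX18, which inserts part of COX2 into the membrane, ranked 291 and 651 in high, 545 and 1383 in low, and 1964 and 1548 in live libraries. Both factors thus had better ranks in every sorted library than in either live library. COX6C was missing from live replicate 2 alone, and COX16 from high replicate 2 alone.

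The tissue-restricted forms of respiratory chain subunits had no open gene end in any library, and the widely expressed partners examined had one, or an open internal start, in at least 5. The 8 tissue-restricted members are COX4I2, known from lung, COX6A2 and COX7A1 from heart and skeletal muscle, COX6B2, COX7B2 and COX8C from testis, and ATP5MGL and UQCRHL, which are copies of ATP5MG and UQCRH. None of the 8 had a gene-end region in the best list of any library. In the full lists COX6B2 and COX8C each had 1 end summit, in live replicate 2, at ranks of 41503 and 54726. Their widely expressed partners COX6A1, COX6B1, COX8A and UQCRH were open in all 6 libraries, COX4I1 and ATP5MG in 5, and COX7A2 through an internal start in all 6. COX7B, the partner of COX7B2, is X-linked and no member. COX6A1 ranked 3744 and 4021 in high, 1156 and 1197 in low, and 2037 and 1923 in live libraries. The COX6A1 window printed above has SP1, NFY and GABPA matches, with summits between -121 and -90 bp from the gene start. The COX6A2 window has 1 match to the TATA box motif, at -201, and 1 NFY match, at -46.

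Most other members with no open gene end were not closed genes. ATP5MC2, COX7A2, COX7A2L, NDUFA5, NDUFAF3 and NDUFC1 each had a region inside the gene in all 6 best lists. In these 6 genes the region lay at another listed start, since the annotated gene end belongs to a longer transcript. NDUFA5, an accessory subunit of complex I, ranked 135 and 488 at its internal start in high, 830 and 2243 in low, and 4994 and 4978 in live libraries. COX7A2, a subunit of complex IV, ranked 652 and 1037 in high, 2452 and 2587 in low, and 1725 and 2125 in live libraries at such a start. ATP5MC2, another c subunit gene, ranked 3627 and 2266 in high, 2322 and 661 in low, and 2194 and 2066 in live libraries. NDUFS6, an accessory subunit with no end region in any best list, had end summits in 5 of the 6 full lists at ranks from 25831 to 37573. When listed starts counted as gene ends, a setting added after the data were seen, 79 members (77.5%) were open in all 6 libraries, against 43.5% of all genes.

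Few gene ends were found in 1 sorted group alone, among the members as over all genes. ATP5F1A, the alpha subunit of the ATP synthase, was the 1 member with both low and neither high library open (0.98%), against 1.54% of all genes. It ranked 12133 and 20227 in low libraries, it was absent from the whole list of high replicate 1, and it ranked 30810 in the full list of high replicate 2. Both live libraries had it, at ranks of 15426 and 8143. No member was open in both high and no low library, against 0.246% of all genes. None was open in both live libraries and no sorted one (0.366% of all genes), and none in all 4 sorted libraries and no live one (0.314%). COX4I1, UQCR11, NDUFA7 and NDUFA10 were missing from high replicate 1 alone (3.92%, against 3.16% of all genes).

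Fewer members were open in the high than in low libraries, as over all genes. The high libraries had 79 ± 0 members open and the low libraries 84 ± 0 (SD, n = 2 each), a difference of -5 in an exact two-sided permutation test with p = 0.333, the smallest p that 2 libraries against 2 allow. The groups did not overlap. Over all genes, 8601 and 9198 were open in high libraries and 9611 and 9596 in low libraries, so high replicate 1 had the fewest.

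Among the 72 members open in all 6 libraries, ranks were compared as normal scores, the value of a standard normal distribution at the same place in the list, so that a higher score is a better rank and 0 the middle of the list. The median score over these members was 0.68 and 0.85 in high libraries and 1.06 and 1.00 in low libraries, a difference in means of -0.26 (exact permutation p = 0.333). The groups again did not overlap. The median fitted difference, high minus low, was -0.14 over the 72 members and -0.20 over the 7766 genes tested, and it was negative in 46 of 72 members and in 5246 of the 7766 genes. In limma with Benjamini-Hochberg adjustment over 7766 genes, 0 members passed an adjusted p of 0.05, as did 0 genes of all (0%). At an unadjusted p under 0.05 there were 17 members (23.6%), against 19.4% of all genes. Both high libraries ranked better than both low libraries at 10 members (13.9%, against 13% of all genes), and worse at 26 (36.1%, against 38.7%). The members thus moved between the sorted groups about as often as the average gene.

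The 10 widest gaps between high and low libraries without overlap were found in complexes I, II, III and V, and none in complex IV. ATP5PD, a subunit of the peripheral stalk of the ATP synthase, ranked 7503 and 3676 in high libraries and 1523 and 417 in low libraries, a normal-score difference of -1.04 (SE 0.30, limma adjusted p = 0.164). UQCRC1, a core protein of complex III, ranked 21771 and 14839 in high and 9466 and 8130 in low libraries. NDUFA3, an accessory subunit of complex I, ranked 12675 and 6479 in high and 2519 and 2166 in low libraries. NDUFB10, ATP5F1E, ATP5F1D, ATP5MJ, NDUFV1 and SDHB differed in the same direction by -1.01 to -0.74, with limma adjusted p-values from 0.172 to 0.235.

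NDUFS4, an accessory subunit of complex I whose loss causes Leigh syndrome, was the 1 gene of these 10 with better ranks in high libraries. It ranked 11314 and 12149 in high libraries, 19270 and 19627 in low libraries and 8031 and 10669 in live libraries (high minus low 0.81, SE 0.23, limma adjusted p = 0.164). Its summits also stood elsewhere in low libraries. They lay 55 and 101 bp past the gene start in high libraries and 353 and 418 bp past it in low libraries, against 126 and 108 bp in live libraries. The low libraries thus had both the worst ranks and the summits farthest from the start.

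**Figure D2:**
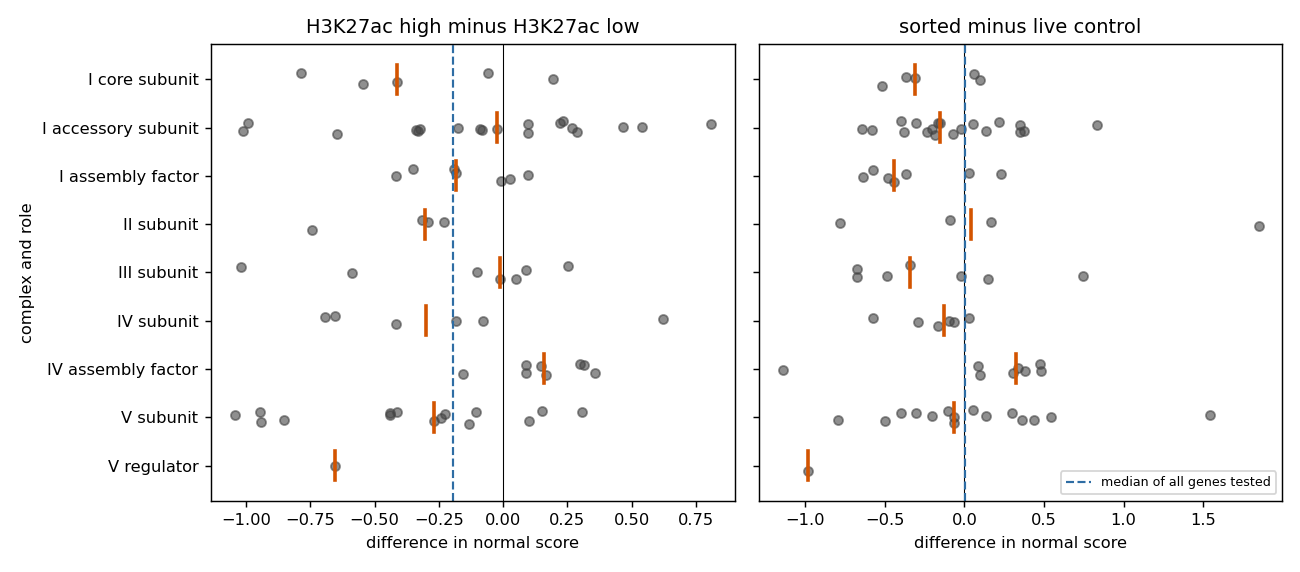
Fitted difference in normal score for each of the 72 members open in all 6 libraries (points), by complex and role, for high minus low (left) and for the mean of both sorted groups minus live (right). Orange bars are medians of a role, and the dashed line is the median of all 7766 genes tested. The assembly factors of complex IV shown, all with COX symbols, lie to the right in both panels, except COX14 on the left and COX10 on the right. SDHA and ATP5ME are the points farthest right in the right panel.

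The roles differed in where their members stood, as a description without a test. The 8 assembly factors of complex IV among the members had a median high minus low difference of 0.16, with 1 of the 8 (COX14) negative. Over all genes the median was -0.20, and 67.6% were negative. These 8 are the factors with COX symbols and do not stand for the role. Most such factors under other symbols were negative, such as COA5 (-0.70) and COA8 (-0.96), while COA1 and CMC1 had 0.03 and 0.09. COX20, a chaperone of the subunit COX2, ranked 1311 and 2390 in high, 2967 and 3317 in low, and 4507 and 4362 in live libraries. Subunits of complex V had a median of -0.27, with 12 of 15 negative, core subunits of complex I -0.41, with 4 of 5 negative, and subunits of complex II -0.30, with 4 of 4 negative. Subunits of complex IV stood at -0.30, with 5 of 6 negative, and assembly factors of complex I at -0.18, with 5 of 7 negative. Accessory subunits of complex I and subunits of complex III stood at -0.03 and -0.01.

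Against the live control, 2 members passed the test with better ranks in both sorted groups. SDHA ranked 6410 and 4617 in high libraries and 3442 and 3412 in low libraries, against 18282 and 22837 in live libraries. The difference in normal score was 1.69 for high minus live (SE 0.27, limma adjusted p = 0.0275) and 2.01 for low minus live (SE 0.27, adjusted p = 0.0139). ATP5ME, a small subunit of the membrane part of the ATP synthase, ranked 3548 and 3319 in high and 2079 and 2245 in low libraries, against 18765 and 12600 in live libraries. Its differences were 1.41 (SE 0.26, limma adjusted p = 0.0341) and 1.68 (SE 0.26, adjusted p = 0.0216). At both genes every sorted library ranked better than either live library. Both comparisons use the same 2 live libraries and so are not independent.

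COX10, a farnesyltransferase needed to make heme A for cytochrome c oxidase, stood worse in the sorted libraries. It ranked 6421 and 6289 in high libraries and 8194 and 10962 in low libraries, against 1410 and 1153 in live libraries, with differences of -0.97 (SE 0.23, limma adjusted p = 0.0476) and -1.32 (SE 0.23, adjusted p = 0.0223). ATP5IF1, an inhibitor protein of the ATP synthase, ranked 12776 and 6353 in high and 4235 and 3952 in low libraries, against 1424 and 1120 in live libraries. It passed for high minus live (-1.31, SE 0.27, limma adjusted p = 0.0393) and had -0.66 for low minus live (adjusted p = 0.167). NDUFS4 passed for low minus live (-1.05, SE 0.23, limma adjusted p = 0.0350) and had -0.24 for high minus live (adjusted p = 0.505). Sorted and live libraries did not overlap at COX10, ATP5IF1 or NDUFS4.

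In all, 2 of 72 members were higher and 2 lower for high minus live (2.78% each, against 2.65% and 2.67% of all genes), and 2 were higher and 2 lower for low minus live (2.78% each, against 4.74% and 0.721%). With the mean of both sorted groups set against the live libraries, SDHA and ATP5ME were higher and COX10 and ATP5IF1 lower (2.78% of members each, against 5.81% and 2.32% of all genes). At an unadjusted p under 0.05 the first 2 comparisons had 23 and 10 members (31.9% and 13.9%, against 27.9% and 25.6% of all genes). NDUFB4, an accessory subunit of complex I, ranked 1122 and 176 in high and 1777 and 1009 in low libraries, against 4438 and 3465 in live libraries, and ATP5F1B likewise did not overlap in the opposite direction. Neither passed (limma adjusted p = 0.0638 and 0.0805 for high minus live). All calls were lost (0 members) without low replicate 1, low replicate 2, live replicate 1 or live replicate 2, and with full lists. The calls over all genes were lost there too, with 0% to 0.103% of them called. Without high replicate 2 the calls for high minus live numbered 15 (19.7% of members tested, against 17.3% of all genes) and those for high minus low 7 (9.21%, against 12.3%). Leaving out single libraries left the SDHA difference between 1.36 and 2.03 for high minus live, and full lists gave 0.42 for high minus live and 0.89 for low minus live (limma adjusted p = 0.270 and 0.381). For ATP5ME, full lists gave 0.50 and 0.90 (limma adjusted p = 0.181 and 0.376). Both genes had the same ranks in full lists as in best lists, but each score then also depends on the length of its list. Lists of unlike length thus changed these differences by themselves, and full lists do not test the calls.

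**Figure D3:**
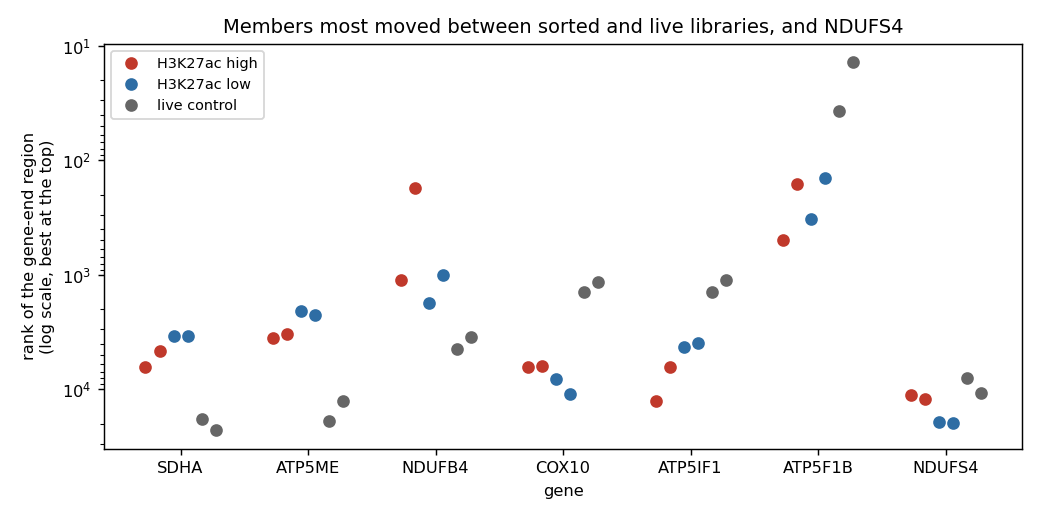
Rank of the gene-end region in each library (log scale, best at the top) for the 6 members that moved most between sorted and live libraries, and for NDUFS4. High libraries are red, low libraries blue and live libraries grey. SDHA, ATP5ME and NDUFB4 have both live points below all sorted points, and COX10, ATP5IF1, ATP5F1B and NDUFS4 have them above.

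The regions of several of these genes are shared. The SDHA region is also at an end of CCDC127, and the ATP5ME region at an end of MYL5, so neither value can be given to 1 gene alone. Of the 72 members open in all 6 libraries, 32 (44.4%) shared their best region with an end of another protein-coding gene, against 31.5% of all genes. These members include ATP5MF and its readthrough ATP5MF-PTCD1, which shared it only with each other. Among the partners were GABPA, the transcription factor, beside ATP5PF, TIMM8B, a chaperone of mitochondrial import, beside SDHD, and MRPL47, a mitochondrial ribosomal protein, beside NDUFB5. The region of ATP5PF, a peripheral stalk subunit, and GABPA ranked 793 and 855 in high, 1686 and 1457 in low, and 2043 and 3374 in live libraries. EEF1B2, a translation factor, shared the region of NDUFS1.

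SDHA also has near-identical pseudogene copies, where reads could be placed at more than 1 site. In the full lists, SDHAP2 on chromosome 3 was absent from high replicate 1 and ranked 16045 in high replicate 2 and 14822 and 15290 in low libraries, against 42081 and 34838 in live libraries. SDHAP1 had 17015 in high replicate 2 and 11033 and 17403 in low libraries, against 30539 and 36355 in live libraries, and SDHAP4 likewise ranked worse in both live libraries. SDHAP3, on chromosome 5, ranked 1668 and 3159 in high, 2085 and 1188 in low, and 2016 and 1579 in live libraries, with overlap of all groups. The part of read placement in the SDHA result was not tested.

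The number of open members was similar in sorted and live libraries. It averaged 81.5 over the 4 sorted and 84.5 over the 2 live libraries, a difference of -3 (exact two-sided permutation p = 0.267, with 0.0667 the smallest possible). The median rank of the members was 6326 and 5055 in high, 3733.5 and 4036.5 in low, and 4080 and 4280 in live libraries. Over all genes tested it was 6525.5 and 5574.5 in high, 4451 and 4490 in low, and 5502 and 5579 in live libraries. The median fitted difference of the members was -0.23 for high minus live, against -0.09 over all genes, and 0.01 for low minus live, against 0.12. Both high libraries ranked below both live libraries at 32 members (44.4%, against 31.6% of all genes), and above them at 16 (22.2%, against 24.7%). Both low libraries ranked above both live libraries at 21 members (29.2%, against 39.6%) and below them at 16 (22.2%, against 22.5%). All 4 sorted libraries ranked above both live libraries at 13 members (18.1%, against 19.8%) and below them at 14 (19.4%, against 15.6%).

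Summits at the open members lay just before the annotated start. Of the 83 members with a strand in the promoter table, between 64 and 70 were open at the start only in each library, 1 or 2 at both ends and 0 at the stop only. Over the 61 of these open in all 6 libraries, the median distance from the nearest listed start was 103 and 81 bp in high, 94 and 85 bp in low, and 94 and 84 bp in live libraries. The groups overlapped, and the difference was 2.5 bp for high minus low (exact permutation p = 1) and 1.75 bp for sorted minus live (exact permutation p = 0.867). The signed median lay between -93 and -76 bp, so before the start. Between 85.2% and 91.8% of these members had the summit within 200 bp of a start, against 76.5% to 79.0% of 6561 genes, with no test.

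**Figure D4:**
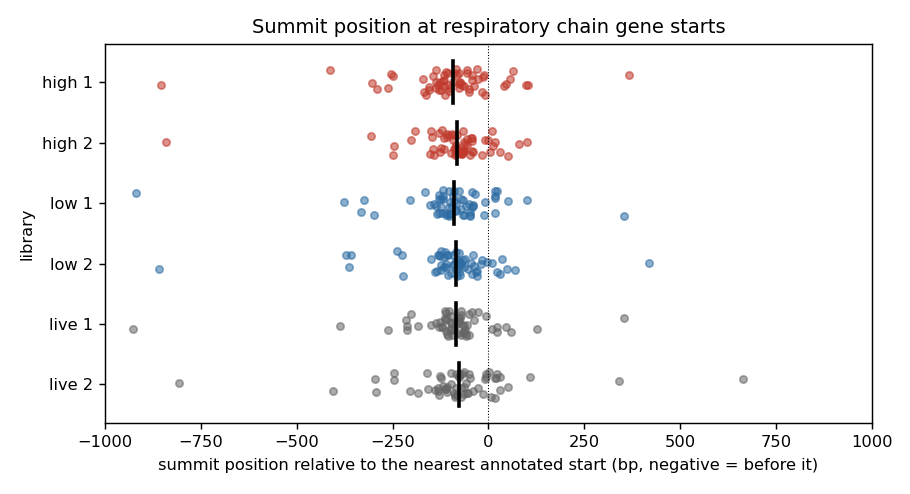
Position of the best gene-end summit relative to the nearest annotated start (bp, negative before it) for the 61 members with a known strand that were open in all 6 libraries, by library. Points are genes and black bars are medians, which lie between -93 and -76 bp in all 6 libraries.

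Regions in the gene body, over 1 kb from both ends, were rarer in these genes than in the average gene. In the best lists, 14 and 13 members had one in high libraries, 12 and 14 in low libraries, and 16 and 15 in live libraries, between 11.8% and 15.7% of members, against 24.2% to 26.7% of all genes. The members are short, with a median length of 11005.5 bp against 24490.5 bp over all genes. The groups of sorted cells overlapped (13.5 ± 0.71 in high and 13 ± 1.41 in low libraries, SD, n = 2 each, exact permutation p = 1), and the sorted libraries averaged 13.25, against 15.5 in live libraries (exact permutation p = 0.133). At least 1 best list held a body region for 19 members (18.6%, against 34.5% of all genes). Body regions in all 6 best lists were found at 10 members (9.8%, against 17.3% of all genes), 6 of which are the genes with an internal start named above.

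NDUFAF6, an assembly factor of complex I that spans 222698 bp, had the most body regions, with 11 and 15 in the full lists of the high libraries, 13 and 15 in low libraries, and 14 and 18 in live libraries. Its best one ranked 2978 and 2669 in high, 3738 and 1013 in low, and 866 and 1543 in live libraries. NDUFC2-KCTD14, NDUFC1, NDUFAF2, ATP5MF-PTCD1 and NDUFV2 followed, each with at most 4 in any library. Counting body summits and end summits in any full list, 97 members (95.1%) had at least 1, against 80.3% of all genes.

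Promoters of the open members held the motifs of NRF1, GABPA and YY1 more often than promoters of open genes in general. The motifs were chosen after values were known, and the shares are given as a description. NRF1 matches were found in 27.9% of the 61 promoters of members open in all 6 libraries, in 14.8% of 6561 promoters of all genes open in all 6, and in 2.25% of 6387 promoters of genes open in none. GABPA matches were found in 36.1%, 24.0% and 4.16% of these sets, and YY1 matches in 11.5%, 4.86% and 0.438%. For SP1 the order was different, with 57.4% of the open members and 73.2% of all open genes, and 41.0% of genes open in none. NFY stood at 37.7%, 41.7% and 32.6%, and the TATA box at 6.56%, 4.91% and 15.6%. CREB matches were found in 6.56%, 3.92% and 1.33%, ZNF143 in 6.56%, 2.87% and 0.313%, and the E-box in 9.84%, 10.9% and 6.04%. Median G and C content was 62.0%, 65.3% and 57.3%. Over all 83 member promoters in the table, open or not, 24.1% had an NRF1, 30.1% a GABPA and 12.0% a YY1 match, against 8.64%, 14.3% and 2.74% of all 15100.

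**Figure D5:**
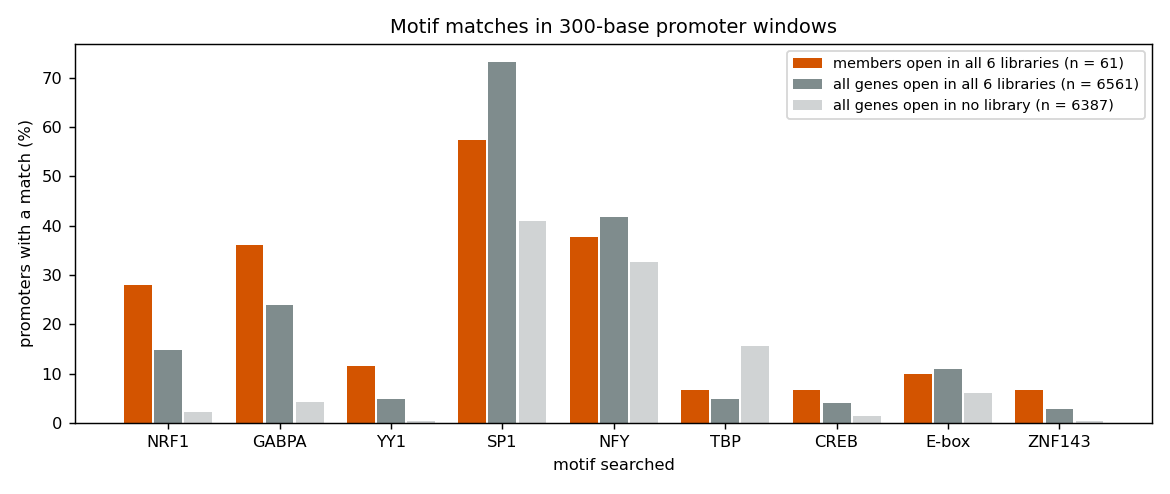
Share of 300-base promoter windows with at least 1 match to each motif, for members open in all 6 libraries (orange, n = 61), all genes open in all 6 (dark grey, n = 6561) and all genes open in none (light grey, n = 6387). TBP stands for the TATA box. The orange bar is the tallest of the 3 for NRF1 (27.9%), GABPA (36.1%), YY1 (11.5%), CREB and ZNF143, and not for SP1 (57.4%), NFY, the TATA box or the E-box.

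Over all genes, the number of NRF1 matches went along with the difference between sorted and live libraries. Of the 61 members, 44 had no match, 10 had 1 and 7 had 2 or more, and the median sorted minus live difference was -0.16, -0.06 and 0.48. Those 7 were SDHA, ATP5ME, NDUFB4, COX17, COX18, NDUFA3 and NDUFA8, of which 5 had a positive difference. Over all genes with a promoter, 5591 had no match, 785 had 1 and 185 had 2 or more, and the medians were -0.03, 0.15 and 0.35. The difference was positive in 47.4%, 62.2% and 79.5% of these genes. Median G and C content also went up over these classes among all genes, with 65.0%, 66.3% and 68.7%, while among the members it was 61.8%, 62.3% and 62.0%. The classes were set after values were seen, and the part of base composition was not tested.

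Base composition went along with the sorted groups too. Across the 61 members, which share libraries and are not independent replicates, Pearson's r between promoter G and C content and the difference in normal score was -0.39 for high minus low, 0.39 for low minus live and 0.05 for high minus live. Over 6561 genes these values were -0.22, 0.22 and 0.04. Members with more G and C thus stood better, relative to the others, in the low libraries than in either other group.

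Other lists of metabolic and mitochondrial genes were open in all 6 libraries for 68.8% to 90.7% of their genes. Of 43 other genes of oxidative phosphorylation, such as cytochrome c and further assembly factors, 39 were open in all 6, of 16 citric acid cycle genes 14, of 15 regulators of mitochondrial biogenesis 11, of 77 mitochondrial ribosomal proteins 60 and of 16 glycolysis genes 11. CYCS, cytochrome c itself, ranked 1242 and 155 in high, 309 and 198 in low, and 1234 and 1804 in live libraries. No gene of these lists passed for high minus low. ECSIT, ACAD9, POLRMT and PGAM1 each passed in 1 comparison with live libraries. Of the mitochondrial ribosomal proteins, 3 were higher and 3 lower for high minus live, and 1 was higher for low minus live. The higher ones for high minus live include MRPL46 and MRPS11, which had the same ranks in every library and so are not separate calls. Over all genes, 2.65% were higher and 2.67% lower for high minus live, and 4.74% and 0.721% for low minus live. ESRRA and DLST are given because they passed in both. ESRRA, a nuclear receptor that drives respiratory genes, ranked 2175 and 1761 in high and 794 and 566 in low libraries, against 7095 and 11401 in live libraries, and passed in both comparisons (1.06 and 1.57, limma adjusted p = 0.0465 and 0.0216). DLST, a subunit of the 2-oxoglutarate dehydrogenase, passed in both in the other direction, with ranks of 14253 and 15459 in high and 13721 and 12558 in low libraries, against 3074 and 5266 in live libraries (-1.20 and -1.03, limma adjusted p = 0.0376 and 0.0399). The gene of NRF1 itself ranked 15223 and 10669 in high, 3447 and 5146 in low, and 6948 and 6152 in live libraries (high minus low -0.99, limma adjusted p = 0.164).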

How the data were processed

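Accessibility was measured in 6 libraries, whose groups and replicate numbers come from their titles. Per the submitters' processing notes, bcl2fastq, FastQC, Bowtie2, Picard and MACS2 were used, with no versions, and the builds hg38 and hg19 are named. Their settings are not given in the sources used. The deposited lists hold single-base summits, called per library, with a score read as the −log10 of a p-value or q-value from the authors' peak caller. It was used only to rank summits within a list. The lists are on hg38, and coordinates are 1-based. The staining protocol writes the antibody target as H3K37ac, which was read as H3K27ac.

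Summits on chromosomes 1 to 22 and X were chained into 100513 regions (median width 43 bp), and the best 25627 of each library were used, ties being broken by a seeded draw. Genes, starts, strands and promoter windows came from RefSeq tables for GRCh38.p14, and 83 of the 102 members have a promoter there. The table gave no strand for the others, so both gene ends were used. Numbers of genes per library were compared with exact two-sided permutation tests. Normal scores of the 7766 genes open in all 6 libraries were fitted with limma 3.58.1 (R 4.3.3) in 1 model of 3 groups, with Benjamini-Hochberg adjustment over all of them, and the fit was tested on simulated data. Python 3.11.15, pandas 2.3.3, numpy 2.4.6, scipy 1.17.1 and matplotlib 3.10.9 did the rest. Alternatives covered list length, chaining, the gene-end window, the scale of the rank, the replicate number as a block, listed starts and each library left out.

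The members, lists, markers and tests were chosen with earlier results of these data known. Named genes were, per complex, the 3 with the best worst rank, the 10 members with the widest gap between non-overlapping high and low libraries, the 6 most moved between sorted and live libraries, the 6 with most body regions, the tissue-restricted forms and their partners, members found in 1 group alone, members with no open end and up to 6 that share a region. The values of 1 member and of 1 marker gene are not reported here. Others were named after their values were seen, namely members called by limma, those at the ends of a range, and genes of the other lists that limma called. Read counts were not analysed, so the depth of each library and the precision it gives are unknown.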

Additional observations from a re-analysis of the deposited data

How the results depend on the processing

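With the best 12813 regions of each list kept, 50 members were open in all 6 libraries, and with full lists 79, with 67 and 76 at gene-end windows of 500 and 2500 bp and 72 to 76 with 1 library left out. The difference in open members, high minus low, kept its sign under all 13 alternatives (-5 in each that left out a library, -7 to -3.5 otherwise). Both high libraries had the same count and so did both low libraries. Leaving out a library, or adding the replicate block, therefore could not change this difference and does not test it. That for sorted minus live ran from -3.83 to -2.17 with a library left out and was 0 with 12813 regions. The median normal score difference, high minus low, ran from -0.30 to -0.20 with a library left out, and its sign held throughout. The body-region difference, high minus low, ran from -0.5 to 1.5 with a library left out (0 without high replicate 1), and was -0.5 with 12813 regions and -4.5 with full lists, while that for sorted minus live ran from -2.75 to -1.75, and was -0.25 with 12813 regions and -6.75 with full lists. The distance difference, high minus low, ran from -8.5 to 11.25 bp with a library left out and was -1 bp with full lists, -0.5 bp at a window of 2500 bp and 0 with 12813 regions. The distance difference, sorted minus live, ran from -3.25 to 8.75 bp and was -1.5 bp with 12813 regions. The cause of these turns was not tested.

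Members called for high against low ran from 0 to 7, for high against live from 0 to 15 and for low against live from 0 to 5 with a library left out, while the share called of all genes ran from 0% to 12.3%, 0% to 17.3% and 0% to 14.4%. For high against live there were 2 with 12813 regions, 0 with full lists, and 0 with percent ranks (7.77%, 0% and 0.373% of all genes). For low against live there were 1, 0 and 2 (5.88%, 0% and 1.27% of all genes). With full lists a score also depends on the length of its list, so those counts do not test the calls. SDHA, ATP5ME and NDUFS4 were not tested with 12813 regions, where they are not open in all libraries. No call of SDHA, ATP5ME, COX10, ATP5IF1 or NDUFS4 changed direction in any alternative. The replicate numbers did not pair the samples, since deviations of same-numbered libraries correlated at 0.085 (high and low), 0.0069 (high and live) and 0.017 (low and live). With the replicate block, high against live had 3 member calls, without COX10 (limma adjusted p = 0.0586), low against live 4 and high against low 0 (3.05%, 4.29% and 0% of all genes). The exact permutation of open members within this block, high minus low, gave p = 0.5, the smallest p that swaps within replicate numbers allow. Unknown depth limits every statement that a gene end was not in a list.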
